A study of Homo sapiens with 2 samples.

Results

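The genes of glycolysis and of the hypoxia response were compared between A549/DDP, a cisplatin-resistant line, and A549, the human lung adenocarcinoma line it was derived from. They were a list of 38 genes, chosen by name from the pathway, with earlier results of these data known. Of these, 36 were measured among 19775 genes, while SLC16A3 and CA9 were not analysed here. RNA of each line was hybridized to 1 Affymetrix HG-U133 Plus 2.0 array. No difference below therefore has a replicate, and no p-value was computed. Both lines were cultured conventionally and lifted with trypsin, and the labels name no drug treatment. Oxygen level, cell density and medium, on which these genes are known to depend, were not given in the sources used here. Where a transcript differed, fewer cells with it and less of it per cell cannot be told apart.

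Each value was a log2 signal. A gene took its brightest probe set, the floor was the median of the array (6.18 for A549/DDP and 6.22 for A549), and a gene at or over it on at least 1 array was called expressed, as 13159 genes were. The arrays were assigned by title, although a note in the labels of A549/DDP mentions forced ZNF300 expression. ZNF300, the gene the study selected, had a log2 signal of 5.76 on the array labelled A549/DDP and 7.59 on the A549 array, at least 2.65-fold lower after the floor was applied. This direction is opposite to that given by the study, so each direction below belongs to the array as labelled. The epithelial markers differed in both directions. KRT8 was 2.22-fold higher (11.99 on the A549/DDP array and 10.83 on the A549 array) and KRT18 2.61-fold higher (14.50 on the A549/DDP array and 13.12 on the A549 array). KRT7 was close to even by its brightest probe set (12.64 on the A549/DDP array and 12.71 on the A549 array). All 3 of its probe sets were below 0, down to -0.85 after the floor was applied. KRT19 was under the floor on both arrays. EPCAM (4.68 on the A549/DDP array and 7.05 on the A549 array) and CDH1 (2.52 on the A549/DDP array and 7.30 on the A549 array) were under the floor on the A549/DDP array only. NKX2-1 read 6.64 on the A549/DDP array and 4.16 on the A549 array. NAPSA read 6.50 on the A549/DDP array and 5.72 on the A549 array. Both NKX2-1 and NAPSA were under the floor on the A549 array only, and SFTPC was under it on both arrays. Of 10 measured markers of leucocytes, endothelium, fibroblasts and neuroendocrine cells, 7 were under the floor on both arrays. The fibroblast marker COL1A1 was over it, with 9.77 on the A549/DDP array and 8.79 on the A549 array. Its 3 probe sets differed by -0.47 to 0.98. CD3E was over the floor on the A549/DDP array only and CHGA on the A549 array only. The part of these marker differences in the results was not tested.

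Glycolysis turns glucose into pyruvate in the cytosol, and many tumour cells run it at a high rate and convert pyruvate to lactate even when oxygen is present. Hypoxia-inducible factors (HIFs) are pairs of an alpha subunit and ARNT that bind DNA at a short core sequence and switch on glycolytic enzymes, glucose transporters, angiogenic factors and regulators of their own stability. When oxygen is plentiful, prolyl hydroxylases of the EGLN family mark the alpha subunit for destruction through VHL, so much of HIF control lies in protein stability, which arrays do not measure.

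To show the DNA in front of the members past 3-fold or nearest to it, the 250 bases before the most upstream RefSeq start site (GRCh38.p14) are printed for HK2, ALDOC, PDK3 and EGLN3, 5′ to 3′ on the strand of the gene, and no window was used here for SLC2A3, the member with the largest difference. Capitals mark the HIF core, ACGTG or GCGTG, and its reverse complement, CACGT or CACGC. Adjoining capitals in ALDOC are 1 palindrome that holds the core on both strands. The windows are chr2:74833877-74834126 on the plus strand for HK2, chr17:28576896-28577145 on the minus strand for ALDOC, chrX:24465036-24465285 on the plus strand for PDK3 and chr14:33951075-33951324 on the minus strand for EGLN3.
HK2: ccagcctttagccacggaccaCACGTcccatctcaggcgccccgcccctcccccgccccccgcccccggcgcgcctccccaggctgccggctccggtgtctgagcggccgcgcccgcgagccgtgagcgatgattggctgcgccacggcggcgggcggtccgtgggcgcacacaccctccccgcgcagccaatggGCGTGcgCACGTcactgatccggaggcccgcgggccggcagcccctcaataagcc
ALDOC: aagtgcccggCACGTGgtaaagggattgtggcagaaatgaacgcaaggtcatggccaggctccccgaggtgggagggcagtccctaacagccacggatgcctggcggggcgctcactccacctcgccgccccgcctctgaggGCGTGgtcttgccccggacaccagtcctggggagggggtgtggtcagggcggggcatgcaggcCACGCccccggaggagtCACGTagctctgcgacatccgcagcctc
PDK3: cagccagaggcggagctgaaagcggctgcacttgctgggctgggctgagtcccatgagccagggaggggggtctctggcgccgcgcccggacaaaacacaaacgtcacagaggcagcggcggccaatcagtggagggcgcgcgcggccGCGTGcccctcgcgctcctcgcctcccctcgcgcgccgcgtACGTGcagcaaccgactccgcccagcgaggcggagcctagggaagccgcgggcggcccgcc
EGLN3: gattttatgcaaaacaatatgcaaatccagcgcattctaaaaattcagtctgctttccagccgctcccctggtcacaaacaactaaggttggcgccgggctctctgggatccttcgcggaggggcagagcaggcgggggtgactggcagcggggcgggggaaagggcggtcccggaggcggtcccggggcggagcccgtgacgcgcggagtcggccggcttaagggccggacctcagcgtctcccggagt
The core stood 3 times in the HK2 window, 5 times in that of ALDOC and 2 times in that of PDK3, with overlapping matches on the 2 strands counted separately, and 0 times in that of EGLN3. Of 32 measured members with a window, 21 (65.6%) held at least 1 core, against 50.8% of 15382 genes on the array with a window. The genes that held the core differed in both directions, as HK2 and ALDOC show. A match of 5 letters is a description and does not show binding.

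All 36 measured members were over the floor on both arrays, and 27 lay in the brightest of 4 brightness classes of equal size, into which the expressed genes were divided. The threshold was a difference of at least 3-fold. HK2 was 3-fold or more higher on the A549/DDP array, which is 1 of 36 members (2.78%), against 2.14% of all expressed genes. SLC2A3, EGLN3 and PDK3 were 3-fold or more lower, which is 3 of 36 (8.33%), against 2.18% of all expressed genes. The median log2 difference was -0.12 over the members and 0.00 over all expressed genes. The share of members higher was thus near the background, and the count of members lower rests on 3 genes. With no floor the share of members lower was also 8.33%, against 9.79% of all genes. The signals of the arrays were within 1.5-fold of each other in 20 of the 36 members (55.6%) and in 66.4% of all expressed genes.

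**Figure D1:**
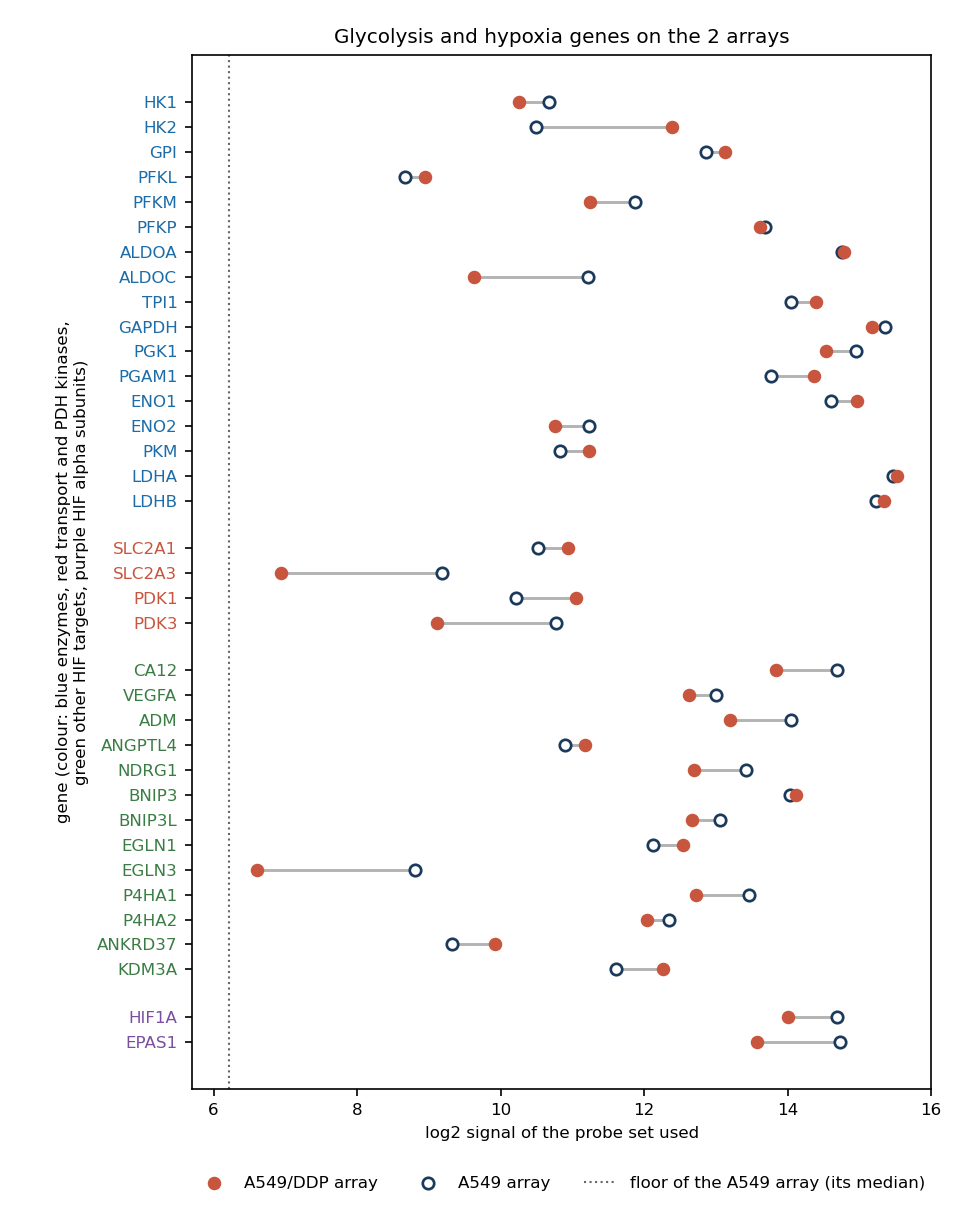
The log2 signal of each measured member is plotted on the horizontal axis for the A549/DDP array (filled) and the A549 array (open), in 4 groups by role, with signals of different genes not comparable. The long lines are those of HK2, with the A549/DDP array on the right, and of ALDOC, SLC2A3, PDK3 and EGLN3, with the A549/DDP array on the left.

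The 17 glycolytic enzymes were close to even as a group. Their median log2 difference was 0.06, 10 were above 0 and 7 below, and 13 of the 17 (76.5%) were within 1.5-fold, against 74.7% of the expressed genes in the brightest class. Without probe sets that can bind related transcripts, 9 of the enzymes dropped out. Of these 9, ENO1 kept only a probe set under the floor. GPI, PFKL, PFKM, ALDOA, GAPDH, PGAM1, LDHA and LDHB had none left among those used for gene values. The other 8 (HK1, HK2, PFKP, ALDOC, TPI1, PGK1, ENO2 and PKM) had a median of -0.23, as the same 8 had with all probe sets. HK2, which encodes a hexokinase that phosphorylates glucose in many tumours, had the largest difference of the 17 enzymes by the probe sets used. Its log2 signal was 12.39 on the A549/DDP array and 10.49 on the A549 array, a 3.73-fold higher signal. Its other probe sets read 9.07 and 9.24 on the A549/DDP array, against 7.69 and 7.82 on the A549 array, which are differences of 1.38 and 1.42. All 3 probe sets thus pointed the same way, but only the brightest passed 3-fold, and the median over them did not. Among the 3290 expressed genes of the brightest class, 0.365% were at least as much higher, and 0.851% of that class was at least 3-fold higher. HK1, the hexokinase found in most tissues, had signals of 10.26 on the A549/DDP array and 10.67 on the A549 array, a difference of -0.41.

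ALDOC, the aldolase best known from brain, differed most in the other direction among the enzymes. Its single probe set read 9.63 on the A549/DDP array and 11.21 on the A549 array, 2.99-fold lower and just under the threshold, which it crossed after quantile normalization and after loess (-1.59 in each). ALDOA, the aldolase of muscle and most other tissues, read 14.78 on the A549/DDP array and 14.76 on the A549 array, and its 3 probe sets differed by 0.01 to 0.03. One aldolase gene was therefore even and the other was not.

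The remaining upper steps showed small differences. GPI, which isomerizes glucose 6-phosphate, had a difference of 0.25. Of the phosphofructokinases, which commit sugar to glycolysis, the liver type PFKL had 0.29, the muscle type PFKM -0.63 and the platelet type PFKP -0.06. TPI1, which interconverts the triose phosphates, read 14.40 on the A549/DDP array and 14.05 on the A549 array, and its 3 probe sets agreed between 0.27 and 0.37.

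In the lower steps, GAPDH, PGK1 and ENO2 were below 0 and the other enzymes above it, all by less than 2-fold. GAPDH, the dehydrogenase often used as a reference gene, read 15.18 on the A549/DDP array and 15.36 on the A549 array. Its 6 probe sets, Affymetrix controls included, differed by -0.21 to -0.07, and after quantile normalization its difference was 0.04. PGK1, which yields ATP from bisphosphoglycerate, read 14.54 on the A549/DDP array and 14.95 on the A549 array, with 5 of its 6 probe sets below 0, from -0.64 to -0.25, and 1 at 0.18. PGAM1, a phosphoglycerate mutase, read 14.36 on the A549/DDP array and 13.77 on the A549 array, a difference of 0.59. ENO1, the general enolase, differed by 0.36 to 0.40 over 3 probe sets, whereas the neuronal enolase ENO2 had -0.47. PKM, the pyruvate kinase, had 0.41 and 0.19 by its probe sets. The lactate dehydrogenases were even: LDHA read 15.52 on the A549/DDP array and 15.47 on the A549 array, and LDHB read 15.34 on the A549/DDP array and 15.23 on the A549 array. Several of these genes have processed pseudogenes, and many of their probe sets are of the kind that can also bind related transcripts.

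**Figure D2:**
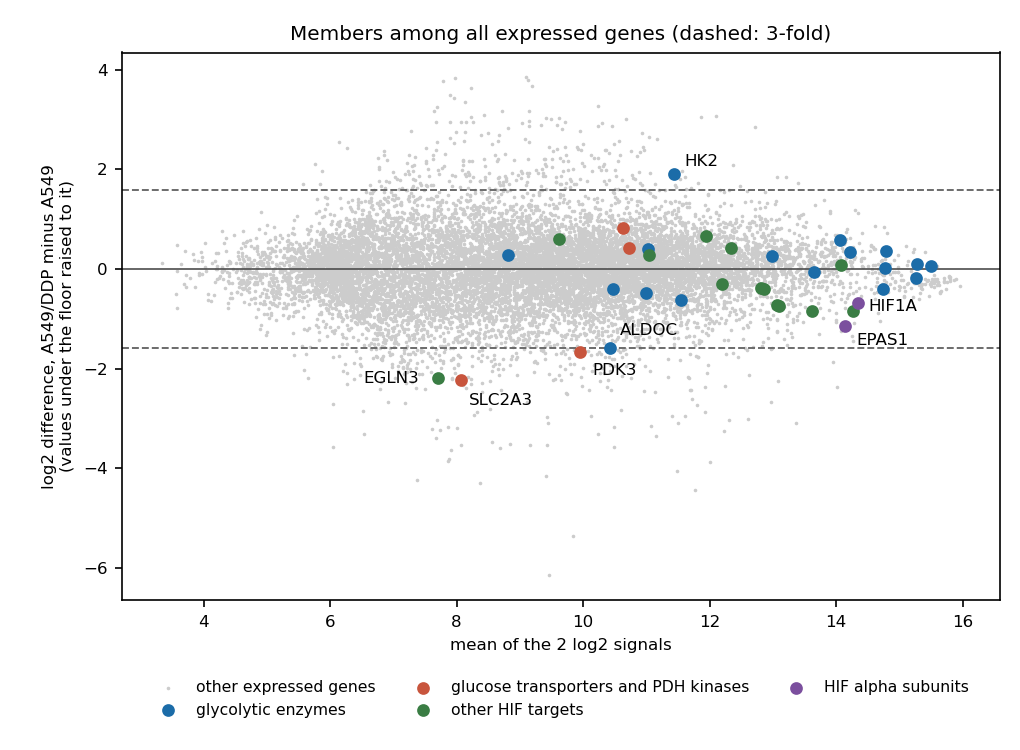
The log2 difference, A549/DDP minus A549, is plotted against the mean of both log2 signals for all expressed genes (grey) and the members (coloured by role), with dashed lines at 3-fold. HK2 lies above the upper line, PDK3, SLC2A3 and EGLN3 lie under the lower line, and ALDOC lies on it at -1.58.

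Glucose entry differed between transporter genes. SLC2A3 encodes GLUT3, a glucose transporter of high affinity known from neurons. Its probe set read 6.95 on the A549/DDP array and 9.18 on the A549 array, 4.70-fold lower. Its other probe sets read 5.41 and 7.11 on the A549/DDP array, against 8.10 and 8.94 on the A549 array, and all 3 passed 3-fold after the value of 5.41, which was under the floor, was raised to it (differences from -2.23 to -1.83). All are of the kinds that can bind related transcripts. In its brightness class, 0.973% of the genes were at least as much lower, and 3.22% were at least 3-fold lower. A higher floor, the 75th percentile of the array, left a difference of -0.54. SLC2A1, which encodes GLUT1, the main glucose transporter of many cultured cells, read 10.94 on the A549/DDP array and 10.52 on the A549 array, a difference of 0.42.

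The pyruvate dehydrogenase kinases, which hold pyruvate back from the mitochondrial citric acid cycle, went in opposite directions. PDK3 read 9.11 on the A549/DDP array and 10.77 on the A549 array, 3.17-fold lower. All 5 of its probe sets were below 0, at -2.46, -1.79, -1.66, -1.23 and -0.32, so that 3 of the 5 passed 3-fold. In its brightness class, 1.85% of the genes were at least as much lower, and 2.19% were at least 3-fold lower. PDK1, the kinase best known as a HIF target, read 11.05 on the A549/DDP array and 10.22 on the A549 array, 1.78-fold apart, with a difference of 0.22 in its other probe set over the floor on both arrays. A further PDK1 probe set, under the floor on the A549 array, differed by 0.15 after the floor was applied. PDK3 and PGK1 are the X-linked members. The 417 expressed X-linked genes had a median of -0.63. Of them, 82.5% were lower on the A549/DDP array, against 6531 of all 13159 expressed genes. At least 3-fold lower were 26 of the 417, PDK3 included, against 287 of the 13159 (2.18%). At least 3-fold higher were 3 of the 417, against 281 of the 13159 (2.14%). PDK3 (-1.66) lay 1.03 below that median and PGK1 (-0.41) lay 0.22 above it. The part of the X chromosome in these differences was not tested.

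The alpha subunits themselves were both lower on the A549/DDP array, under 3-fold. HIF1A read 14.01 on the A549/DDP array and 14.69 on the A549 array by its single probe set, 1.60-fold lower. EPAS1, which encodes HIF2 alpha, read 13.57 on the A549/DDP array and 14.72 on the A549 array, 2.22-fold lower. A further EPAS1 probe set was over the floor on the A549 array only, with 5.99 on the A549/DDP array and 7.47 on the A549 array. As large a decrease as that of EPAS1 was seen in 5.59% of all expressed genes, and of HIF1A in 15.0%. Within the brightest class, which holds both, the shares were 3.43% for EPAS1 and 10.2% for HIF1A. These are transcript levels, and the protein was not measured on the arrays.

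Of the enzymes that hydroxylate HIF, EGLN3 (PHD3), itself a HIF target, was lower. It read 6.61 on the A549/DDP array and 8.80 on the A549 array, 4.58-fold apart, and its other probe set 6.72 on the A549/DDP array and 8.28 on the A549 array, 2.95-fold apart. Both probe sets are of the kind that can bind related transcripts. Both A549/DDP values lay close to the floor, and the floor at the 75th percentile left a difference of -0.16. In its brightness class, 1.09% of the genes were at least as much lower. EGLN1 (PHD2), the main oxygen sensor among them, read 12.55 on the A549/DDP array and 12.13 on the A549 array, a difference of 0.42, while its other probe sets over the floor gave 0.11 and -0.17.

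The 13 measured HIF targets other than enzymes, transporters and kinases had a median of -0.39. Of them 5 were above 0 and 8 below, and EGLN3 alone passed 3-fold. CA12, a membrane carbonic anhydrase that acts on pH outside the cell, read 13.84 on the A549/DDP array and 14.69 on the A549 array, and its 6 probe sets over the floor on both arrays were all below 0, from -1.05 to -0.64. Its remaining probe set, under the floor on the A549/DDP array, differed by -0.23 after the floor was applied. ADM, the vasodilator peptide adrenomedullin, read 13.20 on the A549/DDP array and 14.04 on the A549 array, 1.79-fold lower. NDRG1, a stress-responsive gene, read 12.70 on the A549/DDP array and 13.42 on the A549 array, 1.65-fold lower. These 3 genes shared a modest decrease, as did the catalytic subunit of collagen prolyl hydroxylase P4HA1 (1.66-fold lower, with 12.72 on the A549/DDP array and 13.46 on the A549 array).

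Others of the group were closer to even or higher. VEGFA, the endothelial growth factor, read 12.62 on the A549/DDP array and 13.01 on the A549 array, and its 4 probe sets lay between -0.57 and -0.36. The mitophagy receptors BNIP3 and BNIP3L had differences of 0.08 and -0.39. P4HA2, the other collagen prolyl hydroxylase subunit among the members, had -0.31 and -0.01. ANGPTL4, an inhibitor of lipoprotein lipase, had 0.28, with 1.05 in its other probe set. ANKRD37, a small ankyrin repeat protein, read 9.92 on the A549/DDP array and 9.32 on the A549 array, a difference of 0.60. KDM3A, a demethylase of histone H3, read 12.27 on the A549/DDP array and 11.61 on the A549 array, a difference of 0.65. Genes that HIF is known to switch on thus lay on both sides of 0.

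**Figure D3:**
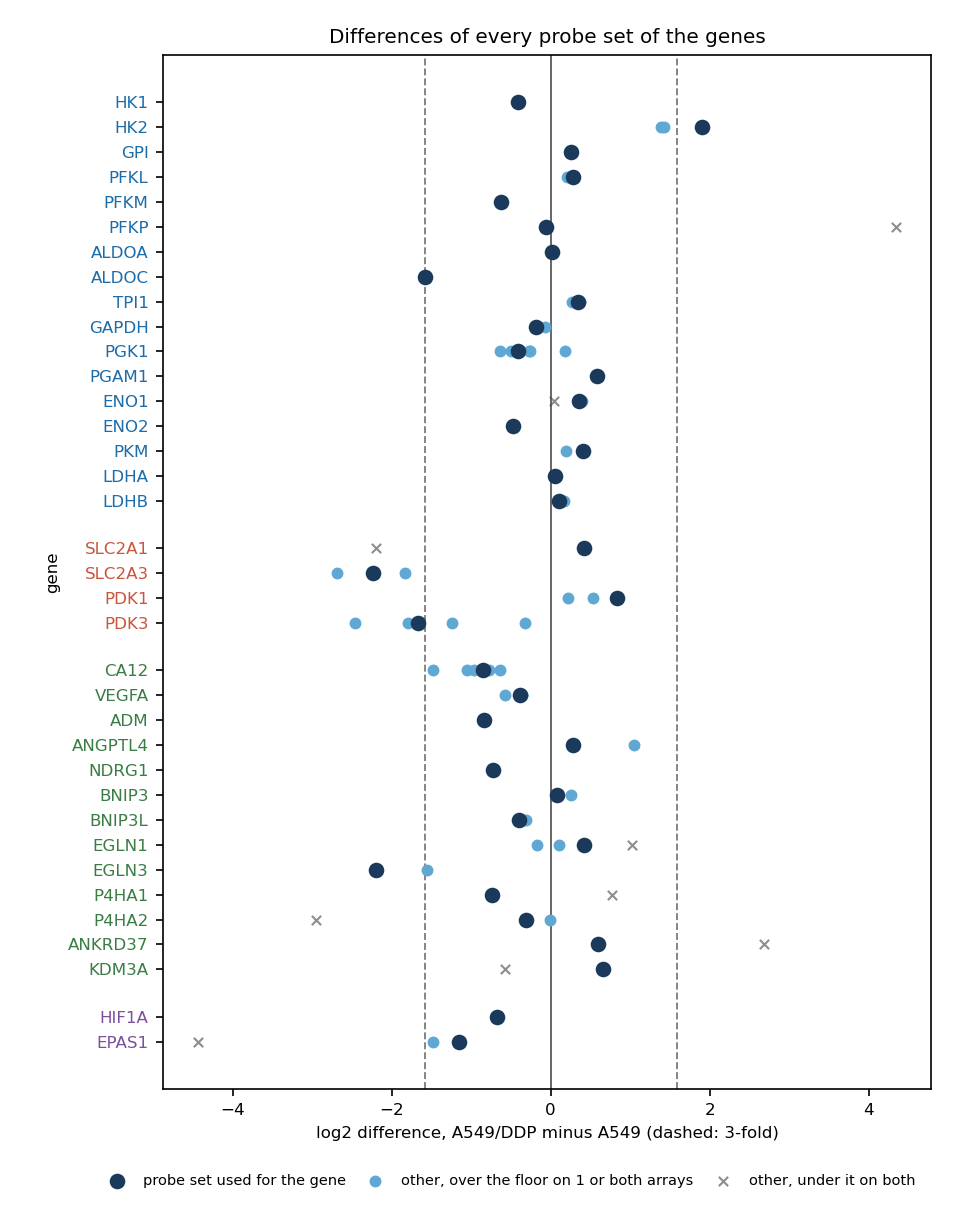
The log2 difference, A549/DDP minus A549, of all 88 probe sets of the members, before any floor, is plotted by gene, with dashed lines at 3-fold and crosses for probe sets under the floor on both arrays. The probe sets of HK2, SLC2A3, PDK3, CA12 and EGLN3 fall on 1 side of 0, and the points farthest from 0 are crosses.

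Probe sets of the same gene give a technical check within each RNA. Of 21 members with at least 2 probe sets over the floor on at least 1 array, 19 pointed 1 way throughout, with PGK1 and EGLN1 as the exceptions. The SD over probe sets of a gene, of the difference before any floor, had a median of 0.21 over these members, from 0.01 for ALDOA to 0.79 for PDK3, against 0.38 over 6570 genes of the array. The differences of PFKP, ALDOA, GAPDH, LDHA, LDHB and BNIP3, which ran from -0.18 to 0.11, were smaller than either spread. PFKP and LDHA each had 1 probe set over the floor and so no spread of their own. The differences of HK2, SLC2A3, PDK3 and EGLN3 had to be larger than the spread of their own probe sets. Genes past 3-fold differ by at least 1.58 in log2, and no member had an SD over 0.79. This comparison therefore adds no support for these 4 genes.

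Related genes were set side by side, a comparison chosen after the values had been seen, in which each probe set is compared with itself on the other array. The 5 of 12 pairs in which the ratio between the relatives shifted by 3-fold or more each hold HK2, ALDOC, SLC2A3, PDK3 or EGLN3, so they restate the differences of those genes beside a relative. The ratio of HK2 to HK1 was 4.94-fold higher on the A549/DDP array. The ratio of SLC2A3 to SLC2A1 was 6.28-fold lower, that of EGLN3 to EGLN1 6.14-fold lower, that of PDK3 to PDK1 5.62-fold lower and that of ALDOC to ALDOA 3.03-fold lower. In LDHB and LDHA the shift was 1.04-fold.

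**Figure D4:**
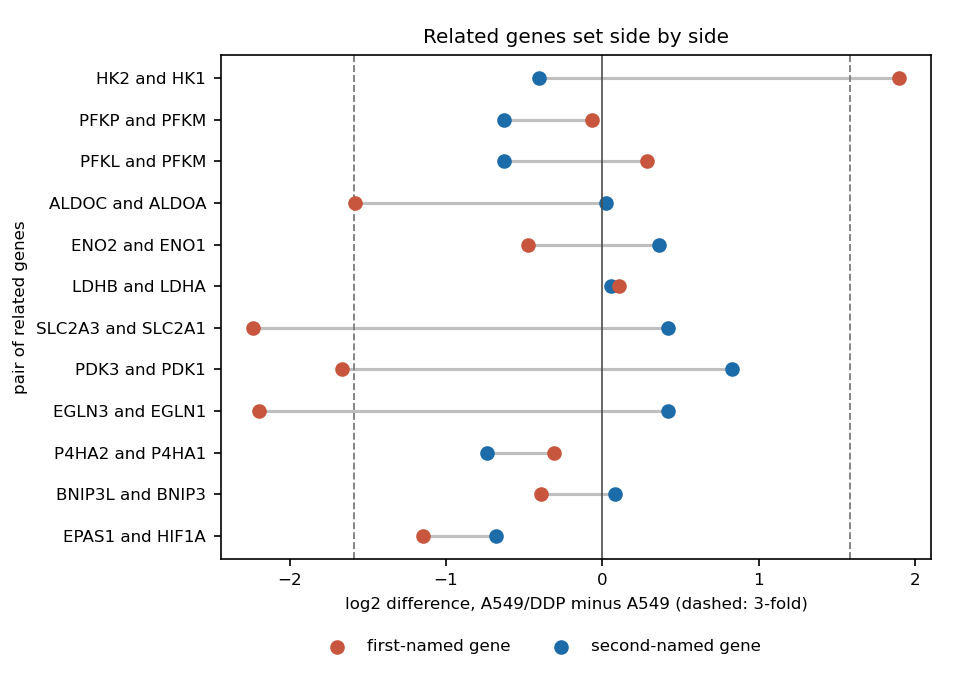
The log2 difference, A549/DDP minus A549, is plotted for 12 pairs of related members, with red for the gene named at the start of each row label and blue for its relative. The pairs of SLC2A3, EGLN3 and PDK3 are split, with those genes left of 0 and their relatives right of it, whereas HK2 lies right of 0 and HK1 left.

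Further genes of these pathways, from lists chosen by name with earlier results of these data known, were mostly near even as well. Among all 13159 expressed genes, 2.14% passed 3-fold on the higher side and 2.18% on the lower side. With so few genes per list, the counts of 0 or 1 below cannot be told apart from those shares. Of 14 expressed further glycolysis genes, 0 passed 3-fold in either direction and the median was 0.07. The largest differences were in PFKFB2, a regulator of phosphofructokinase (7.62 on the A549/DDP array and 8.71 on the A549 array, 2.13-fold lower, with 0.00 in its other probe set after the floor was applied), and in LDHC, the lactate dehydrogenase known from testis (6.41 on the A549/DDP array and 7.23 on the A549 array, 1.76-fold lower). Of 11 expressed genes of HIF regulation, 0 passed 3-fold higher and 1 passed 3-fold lower, with a median of 0.03. That gene was CITED2, which competes with HIF for the coactivators CREBBP and EP300, with 9.04 on the A549/DDP array and 10.66 on the A549 array, 3.08-fold lower. ARNT, the partner of the alpha subunits, had 8.38 on the A549/DDP array and 9.40 on the A549 array, 2.02-fold lower. Among 5 ARNT probe sets over the floor the direction varied, with 3 below 0 and 2 above, from -1.02 to 0.22. Of 28 expressed further HIF targets, PFKFB3 and PFKFB4 of the glycolysis list included, 0 passed 3-fold higher and 1 passed 3-fold lower, with a median of -0.11. That gene was MXI1, an antagonist of MYC, with 10.58 on the A549/DDP array and 12.77 on the A549 array, 4.58-fold lower by its single probe set. The 19 members other than enzymes had a median of -0.39 and these further targets one nearer 0.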

How the data were processed

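Total RNA of A549/DDP and A549 cells was labelled and hybridized to 1 Affymetrix HG-U133 Plus 2.0 array per line. The authors deposited a table of log2 values for 54675 probe sets. MAS5 and affy are named, without versions, in the submitters' processing notes, whereas the methods of the study name SCAN and UPC. The values had the properties of scaled MAS5 signals, since the mean signal after leaving out 2% at each end was 500.1 on both arrays. They were used as deposited. MAS5 subtracts a mismatch signal, so dim values scatter widely, and 2 arrays limit the precision.

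A further deposited table holds 4 columns of signals and calls of A549-LV5 and A549-ZNF300 cells, which are no samples of this series, and fold ratios between them. It was not used.

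Probe sets with 1 gene in the platform annotation (41097, of which 41043 matched a RefSeq symbol, GRCh38.p14) were kept, 1801 with several genes and 11777 with none were not, and 62 controls stayed out of gene values. The probe set with the highest mean stood for its gene, and values under the median of the array were raised to it. The 4 brightness classes were taken over expressed genes and were added after the data were examined. The text names all members and, from the further lists, genes past 3-fold or else those 2 with the largest difference, with ARNT, the epithelial markers and the related pairs chosen after their values were seen. Members and lists were chosen with earlier results of these data known. Alternatives were median centring, quantile normalization, loess (span 0.3, 3 iterations), a floor at the 25th or the 75th percentile or none, a gene's median over its probe sets, probe sets without those of the _x_at and _s_at kinds, and thresholds of 2-fold and 5-fold. The step from probe sets to genes was checked on simulated shifts in bright genes, the same for every probe set of a gene. That check does not cover dim signals or probe sets that disagree. Python 3.11.15, numpy 2.4.6, pandas 2.3.3 and statsmodels 0.14.6 were used.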

Additional observations from a re-analysis of the deposited data

How the results depend on the processing

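With the median over its probe sets HK2 did not reach 3-fold (1.42), and PFKP passed instead (2.14), through a probe set under the floor. With no floor the count of members lower stayed at 3 of 36 (8.33%), against 9.79% of genes. It also stayed at 3 with the floor at the 25th percentile (8.33%, against 4.83%). The count of members higher stayed at 1 (2.78%), against 8.70% with no floor and 3.78% with the 25th percentile. The count of members lower was 1 of 36 with the floor at the 75th percentile (2.78%, against 1.46% of expressed genes). It was 1 without _x_at and _s_at probe sets (5.26%, against 2.27%). In that setting 19 members were expressed. SLC2A3 and EGLN3 had no value in it, because all their probe sets are of these kinds. At a 2-fold threshold the count of members lower was 5 (13.9%, against 7.40%). At 2-fold 1 member was higher (2.78%, against 6.13%). At a 5-fold threshold 0 were higher (0.600% of expressed genes were) and 0 lower (0.562%). ALDOC passed 3-fold after quantile normalization and loess. PDK3 passed under all 8 settings of scaling, floor and probe set, from -1.91 to -1.63. The median of the enzymes ran from -0.23 to 0.20 and that of the other members from -0.46 to -0.36. Of 36 members, 31 kept their sign under each of these settings in which they were expressed, and PFKP, GAPDH, SLC2A1, EGLN1 and P4HA1 did not. No difference has a replicate, and dim signals scatter widely. No paired analysis was possible because each line had 1 array.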

Other observations

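Genes that lie beside glycolysis were also read. Of the expressed genes of gluconeogenesis, the route from pyruvate back to glucose, 4 had a value and 0 passed 3-fold in either direction. PC, which makes oxaloacetate from pyruvate, had 7.37 on the A549/DDP array and 8.81 on the A549 array, 2.72-fold lower, and PCK2, the mitochondrial PEP carboxykinase, had 8.74 on the A549/DDP array and 9.71 on the A549 array, 1.96-fold lower. Of 8 expressed genes of the pyruvate dehydrogenase complex and its regulators, 0 passed 3-fold, with a median of -0.05. In lists of 4 and 8 genes, a count of 0 cannot be told apart from the background, 2.14% on the higher side and 2.18% on the lower side. PDP1, a phosphatase that reactivates the complex, was 1.79-fold lower (10.61 on the A549/DDP array and 11.46 on the A549 array), while its other probe set differed by 0.23, and DLAT, its acetyltransferase, was 1.77-fold higher (10.63 on the A549/DDP array and 9.81 on the A549 array).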
